A study of Mus musculus with 2 samples.

Results

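The genes described here encode the heat shock proteins, their DNAJ co-chaperones and the chaperonins of mouse. Members were taken by symbol from the protein-coding genes of the annotation: the HSP90, HSP70 (Hspa), HSP110 (Hsph1), small HSP (Hspb), HSP60 and HSP10 (Hspd1, Hspe1), DNAJ and CCT genes with Tcp1. There were 80 members among 21461 nuclear protein-coding genes listed. They comprised 3 HSP90 genes, 13 HSP70 and HSP110 genes, 8 small HSP genes, 2 genes of the mitochondrial chaperonin, 9 CCT genes and 45 DNAJ genes. Cct6a, a subunit of the CCT ring, is typed as a processed transcript in that annotation and so fell outside the rule. Its values are given beside the ring only. Hspa14 was not analysed here.

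The study sequenced total RNA of G1E-ER4, an immortalized mouse line labelled as C57BL/6J. These erythroid precursors lack their own Gata1 and carry a restored GATA1 joined to the ligand-binding domain of the estrogen receptor, so that estradiol starts their differentiation. All cells had received 10 nM 17beta-estradiol for 24 h, and the 2 libraries are labelled biological replicates 1 and 2 of this single group. With no untreated cells and 1 line, the values are levels in induced cells, no effect of estradiol was measured, and no test between conditions was possible.

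Chaperones bind proteins that are unfolded or not yet folded and release them in cycles driven by ATP. HSP70 takes up client proteins that DNAJ co-chaperones deliver and activate it for, HSP90 receives part of these clients at a late stage of folding, and the ring-shaped chaperonins enclose single chains such as actin and tubulin. Under heat or proteotoxic stress heat shock factor 1 raises a subset of these genes, while others are made constantly, and the endoplasmic reticulum (ER) and mitochondria keep sets of their own. The ligand-binding domains of steroid receptors are classical HSP90 clients.

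Promoter windows from RefSeq (GRCm38.p6, 250 bases before to 50 after a start site) were at hand for 65 of the 80 members. The 15 members without a window include Hsp90aa1, Hsp90ab1, Hspa8 and Hspa9, so no motif was searched for these genes. The windows are shown first because stress control is read from them. Heat shock factors bind heat shock elements, inverted repeats of the unit GAA. The strict form searched, GAANNTTCNNGAA on either strand, with its reverse complement TTCNNGAANNTTC, lay in 0.603% of all 32851 windows of this length. Among the members it was found for Hspd1 and Hspe1, which share one stretch, and for Hsph1 and Dnajb6. The stretches of 30 bases that hold it follow, 5′ to 3′ on the gene's strand, with the units of the element in capitals.
Hspe1, chr1:55088053-55088082, plus strand: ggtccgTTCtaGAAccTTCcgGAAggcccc
Hsph1, chr5:149636279-149636308, minus strand: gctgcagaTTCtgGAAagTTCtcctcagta
Dnajb6, chr5:29735844-29735873, plus strand: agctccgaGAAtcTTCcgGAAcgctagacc

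In the Hspe1 stretch 2 such matches overlap, so that 4 units follow one another. The same bases lie in a window of Hspd1 read from the opposite strand. Another Hspd1 window, chr1:55088194-55088493, holds no strict form. The Hsph1 match lies 3′ of the start site. All 4 genes were detected. Counted by gene, the strict form was found for 0.634% of detected and 0.490% of undetected protein-coding genes with a window. It was found for 0 of the 22 undetected members with a window. A window without a match says only that these letters are not in it.

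The textbook stress genes Hspa1a and Hspa1b held only the shorter pair GAANNTTC, at position -104 from the start site of each. Their windows were identical at 296 of 300 bases. This pair is part of the strict form and is common, being found in 7.86% of all windows. Counted by gene, it was found for 16 of the 65 members with a window, beside 8.38% of nuclear protein-coding genes with one. The 250 bases before the start of Hspa1b are shown with the pair in capitals, because this gene was nearly silent in both libraries.
Hspa1b, chr17:34959239-34959488, minus strand: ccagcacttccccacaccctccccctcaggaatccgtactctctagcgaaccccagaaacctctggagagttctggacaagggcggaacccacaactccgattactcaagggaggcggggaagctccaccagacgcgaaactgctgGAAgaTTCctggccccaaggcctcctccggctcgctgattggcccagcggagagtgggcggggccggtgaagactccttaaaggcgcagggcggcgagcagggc

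The ER stress element, searched as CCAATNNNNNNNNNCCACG on either strand, was found in 0.119% of all windows. Among the members it occurred in the windows of Hspa5, Dnajc3 and Hsp90b1, which all encode ER proteins. These were 3 of the 9 members listed for the ER lumen or membrane that had a window, beside 0.172% of nuclear protein-coding genes with one. Hsp90b1 held 1 copy in each direction. For Hsp90b1 the part of the window outside annotated exons is shown, and for Hspa5 and Dnajc3 30 bases, with the ends of the element in capitals.
Hspa5, chr2:34772020-34772049, plus strand: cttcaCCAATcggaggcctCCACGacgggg
Dnajc3, chr14:118937822-118937851, plus strand: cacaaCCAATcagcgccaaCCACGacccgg
Hsp90b1, chr10:86705510-86705694, minus strand: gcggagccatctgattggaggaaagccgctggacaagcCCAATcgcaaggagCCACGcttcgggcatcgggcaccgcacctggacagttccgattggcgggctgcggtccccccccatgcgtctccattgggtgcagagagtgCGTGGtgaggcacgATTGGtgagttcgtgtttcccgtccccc

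A form of the GATA factor motif, AGATAA on either strand, was found for 3 of the 65 members with a window, Dnajb2, Dnajb7 and Hspb9. It was found for 10.9% of nuclear protein-coding genes with a window. With each gene's windows averaged, detected members had a median of 26 CpG dinucleotides per window and undetected members 13.5. The same medians were 22 and 6 over detected and undetected protein-coding genes.

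Replicate 1 had 50277914 and replicate 2 47478888 expected counts, which are estimated reads per gene. Nuclear protein-coding genes held 14373925 and 13901316 of them, and the members 235002 and 227693. Levels are given as TPM, a transcript's share of the library per unit of its length. Nuclear protein-coding genes summed to 226724 and 228612 TPM, and rescaling on that sum multiplies each TPM by 4.41 and 4.37. All 10 erythroid markers examined were detected, while 0 of 5 myeloid, 0 of 5 lymphoid and 0 of 5 stromal and endothelial markers were. Kit and Cpa3, 2 of 4 mast cell markers, and 3 of 5 megakaryocyte markers were detected. The summed TPM of the myeloid markers was 1.15 in replicate 1 and 4.23 in replicate 2, and that of the megakaryocyte markers 31.4 and 22.9. Their part in any replicate difference below was not tested.

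Detection required 1 TPM or more in each library. By this rule 54 of the 80 members, or 67.5%, were detected, against 40.2% of all nuclear protein-coding genes. Of the other 26 members, 13 had no count in either library. The members just inside the threshold were Dnajc18 (1.48 and 1.57 TPM), Dnajc27 (1.51 and 1.79) and Dnajb2 (1.99 and 2.55), and those just outside were Dnajc28 (0.91 and 1.00), Dnajc12 (1.46 and 0.81) and Hspa2 (1.02 and 0.79). The median over all members was 5.44 TPM, beside 0.025 over all protein-coding genes, and over detected genes alone 18.1 TPM beside 9.76. Together the members made up 1.48% and 1.52% of the protein-coding TPM.

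That sum was carried by few genes. Hsp90aa1, Hspa8 and Hsp90ab1 alone held 51.3% ± 0.279 of it (SD, n = 2). By family, HSP90 held 37.9% ± 0.618, HSP70 and HSP110 22.2% ± 1.14, CCT 19.5% ± 0.287, the 45 DNAJ genes 14.8% ± 0.0864, HSP60 and HSP10 5.29% ± 0.143 and the small HSPs 0.314% ± 0.00448 (SD, n = 2 for each). These shares take Hspa8 as listed, without the copies described below. In the plot of all members by family, the 3 HSP90 genes and the pair Hspd1 and Hspe1 are all detected, while each of the other families runs from detected genes down to genes below the threshold.

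**Figure D1:**
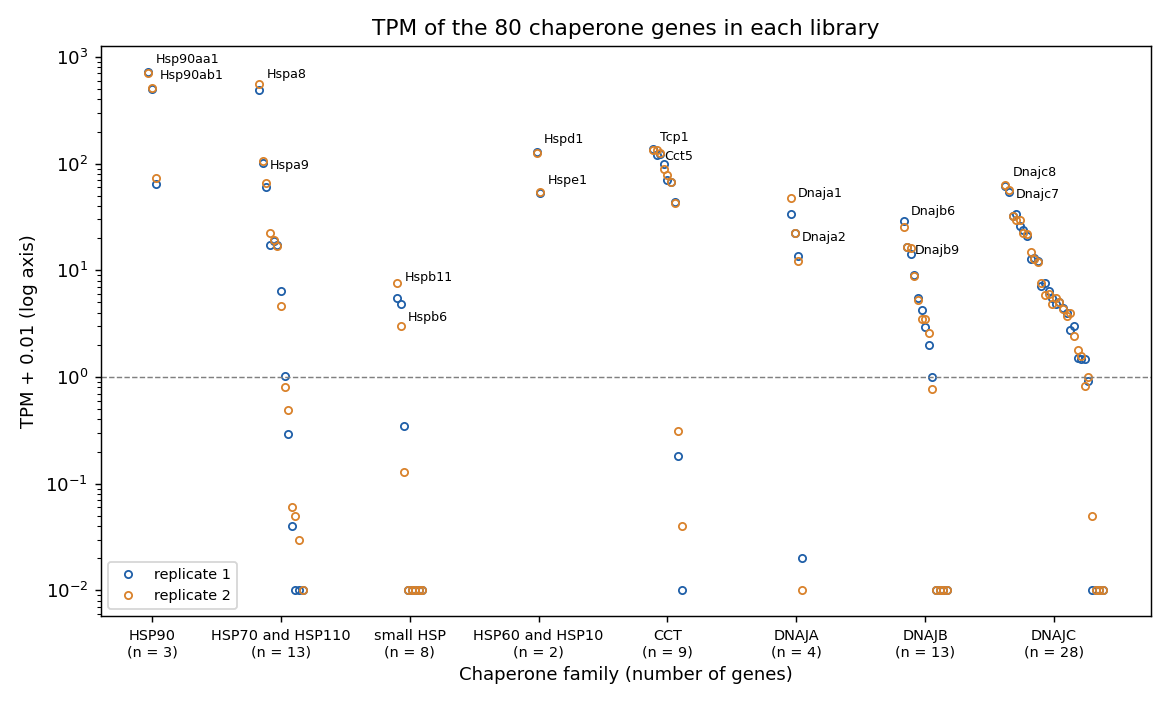
TPM of each of the 80 members, plotted as TPM + 0.01 on a log axis, by family, with replicate 1 in blue and replicate 2 in orange and the dashed line at a TPM of 1. Hsp90aa1, Hspa8 and Hsp90ab1 stand highest, 54 members lie above the line in both libraries, and the circles at the bottom are genes with a TPM of 0.

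HSP90 was represented by its cytosolic and ER forms, all of them detected. Hsp90aa1, the form that stress can induce, stood at 724.40 TPM in replicate 1 and 713.16 in replicate 2, which ranked it 27th among nuclear protein-coding genes. Hsp90ab1, the form held to be constitutive, stood at 502.45 and 515.71 TPM. The inducible form was therefore the higher of the pair in both libraries, with a ratio of Hsp90ab1 to Hsp90aa1 of 0.708 ± 0.0209 (SD, n = 2). Hsp90b1, the ER form (GRP94), stood at 64.85 and 73.66 TPM, and Hsp90aa1 exceeded it 10.4 ± 1.05-fold (SD, n = 2).

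Hspa8, the constitutive cytosolic HSP70 (HSC70), was listed at 494.53 and 561.05 TPM, a range that overlapped that of Hsp90ab1. The stress-inducible HSP70 genes were close to absent. Hspa1b had 3 and 4.48 expected counts (0.03 and 0.05 TPM), Hspa1a had 0 and 1.52, and Hspa1l had none. As an approximate upper limit for a count of 0, 3 counts were taken. At an effective length of 1 kb, 3 counts correspond to 0.0910 TPM in replicate 1 and to 0.0957 in replicate 2. Hspa2, a form known from testis, stood at 1.02 and 0.79 TPM. Hspa8 thus made up 99.8% ± 0.0416 of the summed TPM of these 5 cytosolic genes (SD, n = 2). In human erythroid precursors the inducible HSP70 protein is known to guard GATA1 from caspase cleavage; proteins were not measured here.

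The level of Hspa8 itself is uncertain, because its sequence has near-identical processed pseudogenes. Of the 50-base words of its leading coding transcript Hspa8-202, 84.4% also occur in other genes. Gm15459 (chr5:5781615-5783555, minus strand, mm10) matched it at 99.7% of 1478 aligned bases, and Gm8355 (chr10:14745362-14747302, minus strand) at 99.1% of 1475. Hspa8 was listed with 22827 and 23297 expected counts, Gm15459 with 15504 and 15178, and Gm8355 with 3507 and 3157. Counts on all 9 listed copies came to 83.3% and 78.7% of the count of Hspa8. Which of these loci the reads came from was not tested.

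This division decides which member ranks first. As listed, the ratio of Hspa8 to Hsp90aa1 was 0.735 ± 0.0736 (SD, n = 2). With the TPM of the copies added it was 1.31 ± 0.0804, with Hspa8 and its copies at 919.5 and 986.5 TPM. Part of that rise comes from the short effective length of Gm8355 in the tables, 637 and 633 bases. With the counts of the copies placed at the length of Hspa8-202, the ratio was 1.16 ± 0.0833 over all transcripts and 0.943 ± 0.0355 over protein-coding transcripts of both genes. The order of these genes was thus not fixed by the data. Among other detected members, listed copies held 5% or more of the gene's own count in a library for Dnaja1 (16.2% and 10.5%) and for Dnajc17, where 6.32 and 16.49 counts lay on a copy beside 142.68 and 137.51 on the gene. For Hsp90aa1, whose transcript shares 58.5% of its words with other genes, the copies held 0.692% and 0.661%.

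The other HSP70 genes were lower. Hspa9, the mitochondrial form (mortalin), stood at 102.11 and 106.48 TPM, and Hspa5, the ER form (BiP), at 19.00 and 19.11. Hspa9 exceeded Hspa5 5.47 ± 0.140-fold, and Hsp90b1 exceeded Hspa5 3.63 ± 0.312-fold (SD, n = 2). The HSP110 genes, whose products exchange the nucleotide of HSP70, were led by Hspa4 at 61.02 and 65.77 TPM. Hspa4l followed at 17.13 and 22.33 and Hsph1 at 17.35 and 16.88, and the ranges of the last pair overlap. Hspa13, an ER-associated form, stood at 6.37 and 4.67 TPM. Hspa12b (0.28 and 0.48) and Hspa12a (0 and 0.04) were not detected.

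**Figure D2:**
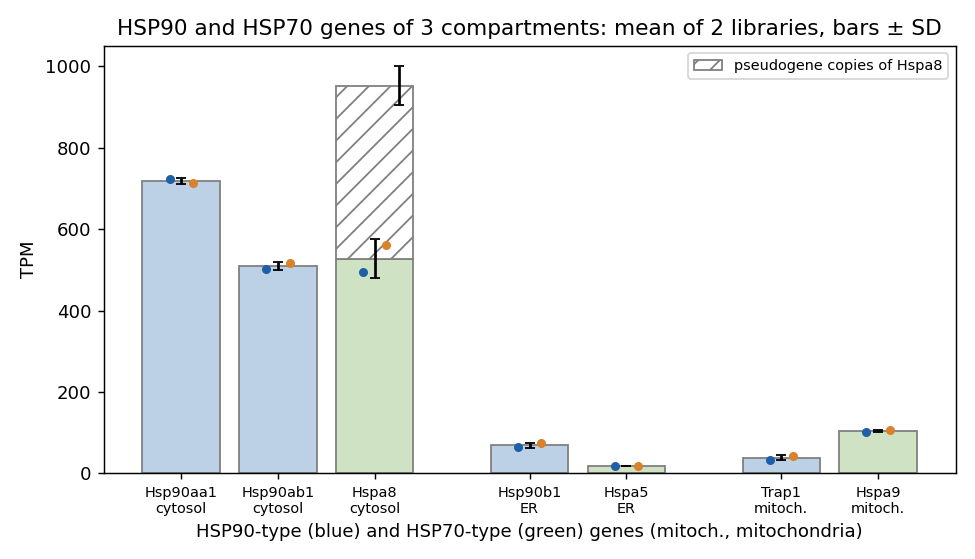
Mean TPM of HSP90-type genes (blue bars) and HSP70-type genes (green bars) of cytosol, ER and mitochondria, with SD (n = 2) and both libraries as points, replicate 1 in blue and replicate 2 in orange. The hatched bar adds the listed TPM of the pseudogene copies to Hspa8, with its own SD, and lifts its mean from 528 to 953, above that of Hsp90aa1; the cytosolic genes exceed those of both organelles.

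Grouped by compartment, all 10 members listed for the ER lumen or membrane were detected, with a summed TPM of 172 ± 5.42. All 8 members listed as mitochondrial were detected, with 347 ± 0.0919 (SD, n = 2 for each). The detected share over all nuclear protein-coding genes was 40.2%. These lists were drawn up with earlier results of the data known and need not hold every member of a compartment. Trap1, the mitochondrial HSP90 that the symbol rule does not take, stood at 33.68 and 43.41 TPM.

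Of the 9 CCT genes 7 were detected, as were both genes of the mitochondrial chaperonin, beside 40.2% of all nuclear protein-coding genes. Among the ring subunits, Tcp1 stood at 136.71 and 132.77 TPM, Cct5 at 121.72 and 132.82, and Cct2 at 124.11 and 125.61. These form the upper tier on gene totals, together with Cct6a at 123.36 and 133.30, and their ranges overlap in a chain. Cct8 followed at 99.66 and 88.89 TPM, Cct4 at 69.48 and 78.08, Cct3 at 66.94 and 67.44 and Cct7 at 43.35 and 43.19. On protein-coding transcripts Cct5 stood at 83.28 and 90.78 TPM, below Tcp1 at 117.33 and 117.17. Cct8, at 53.15 and 51.73 on that measure, overlapped Cct4 at 49.62 and 52.14. The 8 subunits occur once per ring in the protein complex. Their transcripts nonetheless spanned a highest-to-lowest ratio of 3.12 ± 0.0476 and a coefficient of variation of 35.1% ± 0.432 (SD, n = 2 for each). Without Cct6a the ratio over the 7 subunits in the rule was 3.11 ± 0.0554. Cct6b, a testis form, had 0.17 and 0.30 TPM, and Cct8l1 had 0 and 2 counts.

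The mitochondrial chaperonin is made of a barrel of Hspd1 (HSP60) closed by a lid of Hspe1 (HSP10). Hspd1 stood at 128.28 and 126.07 TPM and Hspe1 at 53.07 and 54.05, with a ratio of 2.37 ± 0.0599 (SD, n = 2). The genes lie head to head on chromosome 1, where their annotated ranges overlap by 112 bases on opposite strands. They share the stretch of heat shock elements shown above. Whether reads were counted by strand is not given in the sources used here, so counts in the overlap cannot be assigned to one gene. Leading transcripts of Hspd1 and Hspe1 shared 44.8% and 36.1% of their 50-base words with other genes. Most of the Hspd1 words were shared with the pseudogene Hspd1-ps3 (42.8%), whose counts came to 1.25% and 1.00% of those of Hspd1. Most of the Hspe1 words were shared with AC117239.2 (35.2%), which was not analysed here.

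**Figure D3:**
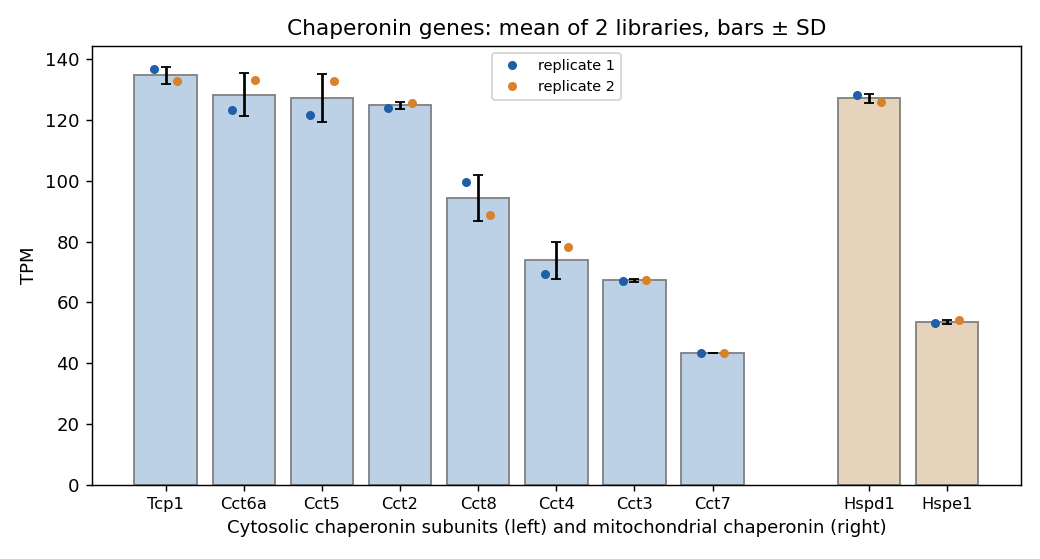
Mean TPM of the 8 subunits of the CCT ring (blue bars, Cct6a included from outside the rule) and of Hspd1 and Hspe1 (tan bars), with SD (n = 2) and both libraries as points. Subunits fall from Tcp1 at 135 to Cct7 at 43.3, and the libraries lie close together beside that span.

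Among the DNAJ co-chaperones, 33 of 45 genes were detected, 3 of 4 in class A, 8 of 13 in class B and 22 of 28 in class C. The detected share was 67.5% over all members and 40.2% over all nuclear protein-coding genes. Summed HSP90 exceeded summed DNAJ 2.56 ± 0.0267-fold on TPM (SD, n = 2). Class A holds the general partners of HSP70. Dnaja1 stood at 33.57 and 47.30 TPM, Dnaja2 at 22.24 and 22.22 and the mitochondrial Dnaja3 at 13.61 and 12.27, while Dnaja4 had a single count. On gene totals the ranges of the 3 detected genes did not overlap, although part of the Dnaja1 sequence is shared with a copy. On protein-coding transcripts Dnaja1 stood at 18.16 and 24.04 TPM, a range that holds both values of Dnaja2.

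Class B was led by Dnajb6, a suppressor of protein aggregation, at 29.08 and 25.48 TPM. Dnajb9 (ERdj4), a luminal ER partner of BiP, stood at 16.60 and 16.61, and Dnajb1, the stress-inducible HSP40, at 14.20 and 16.04. Dnajb1 lay below Dnajb9 in both libraries, though closely in replicate 2. Dnajb11 (ERdj3) followed at 8.99 and 8.80, Dnajb12 at 5.50 and 5.23 and Dnajb4 with a mean of 3.84 ± 0.509 (SD, n = 2). Dnajb5 fell short of the threshold at 0.98 and 0.77. Dnajb3, Dnajb7, Dnajb8 and Dnajb13 had no count.

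Class C contains proteins that share little beyond the J domain. Its highest member was Dnajc8, a nuclear protein associated with splicing factors, at 62.06 and 62.72 TPM. Dnajc7, which binds both HSP70 and HSP90 through repeats of its own, stood at 54.52 and 56.16. Dnajc10 (ERdj5), a disulfide reductase of the ER, stood at 32.46 and 32.49, Dnajc13, an endosomal protein, at 33.97 and 29.50, and the ribosome-associated Dnajc2 at 26.03 and 29.90. Dnajc19, part of the motor that imports mitochondrial proteins, stood at 23.66 and 22.45. Dnajc9, a chaperone of histones H3 and H4, was at 20.88 and 21.77. On protein-coding transcripts Dnajc8 remained highest in class C at 58.97 and 59.96 TPM. Dnajc7 stood at 18.65 and 21.36 on that measure, below Dnajc10 at 21.98 and 22.36 and Dnajc19 at 23.66 and 22.45. Dnajc13 stood at 15.84 and 13.39 on it. At the low end Dnajc6, the neuronal auxilin, had 1 count in replicate 2, and Dnajc5b, Dnajc5g and Dnajc22 had none. Gak, the widely expressed relative of Dnajc6 that has another symbol, stood at 23.10 and 23.76 TPM.

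Small HSPs, which hold unfolded proteins without ATP, were the family with the least RNA. Hspb1, Hspb2, Hspb3, Hspb7 and Hspb8 had no count in either library, and neither did Cryaa and Cryab, the crystallins of the same superfamily. Hspb11, better known as an intraflagellar transport subunit, stood at 5.49 and 7.65 TPM on 100 and 119 counts. Hspb6 stood at 4.84 and 3.02 on 137 and 119 counts, of which only 18.6% and 46.5% lay on its protein-coding transcript. Hspb9 had 6 and 2 counts.

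Of 8 genes listed as heat inducible, Hsp90aa1, Dnajb1 and Hsph1 were detected, and Hspa1a, Hspa1b, Hspb1, Hspb8 and Dnaja4 were not. Beside this and the list counts below, 40.2% of all nuclear protein-coding genes were detected. Windows were at hand for 7 of the 8, all but Hsp90aa1, and 6 held the pair GAANNTTC, among them all 5 that were not detected. The pair was found for 8.38% of nuclear protein-coding genes with a window. Of 9 genes listed as testis forms none was detected and 5 had no count, and of 4 small HSP genes known from muscle only Hspb6 was detected. These lists were drawn up with earlier results of the data known, and their counts are descriptions.

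Genes that work with the members were examined from lists of 91 genes, of which 90 were matched and 77 detected. Beside these counts and those by list below, 40.2% of all nuclear protein-coding genes were detected. The lists were chosen with earlier results known, so their counts are descriptions. Of the heat shock factor list, Hsf1 stood at 7.01 and 6.53 TPM and Hsf2 at 2.15 and 1.42. Hsbp1, a small protein that binds HSF1, stood at 37.53 and 33.49. Hsf4 (0.11 and 0.72) and Hsf5 (0.03 and 0.02) were below the threshold, and Hsf3 and Hsfy2 had no count.

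Of 20 HSP90 co-chaperones 19 were detected. Stip1 (HOP), which links HSP70 to HSP90, was highest at 90.19 and 95.86 TPM, or 12.9% ± 0.701 of the level of Hsp90aa1 (SD, n = 2). Ptges3 (p23) followed at 58.83 and 57.21 and the cyclophilin Ppid at 42.81 and 52.72. The muscle form Unc45b had no count.

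Of 12 exchange factors and regulators of HSP70, 11 were detected. St13 (HIP), which stabilizes the client-bound state of HSP70, led at 53.91 and 70.96 TPM, followed by Bag6 at 38.05 and 40.68 and Bag2 at 28.79 and 31.10. Sil1, an exchange factor of BiP, was lowest with a mean of 0.925 ± 0.247 TPM (SD, n = 2). Of 9 prefoldin and phosducin-like genes, which hand chains to CCT, 8 were detected. The highest were Pfdn5 (54.62 and 44.51), Vbp1 (20.22 and 20.58) and Pdcl3 (15.60 and 18.94), and Pdcl2 had no count.

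Among 14 tubulin, actin and tubulin cofactor genes, which include the main CCT clients, 12 were detected. Actb stood at 792.16 and 824.36 TPM, Tuba1b at 525.81 and 595.72 and Tuba1c at 278.04 and 291.72, while Tubb6 had no count. ER folding genes were detected in 10 of 11 cases. The oxidase Ero1l was highest at 127.43 and 123.80 TPM, above the lectin chaperones Canx (76.93 and 78.96) and Calr (72.77 and 72.22), and its relative Ero1lb was lowest at 0.56 and 1.15. All of these leading ER genes exceeded Hspa5 in both libraries.

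All 10 genes of mitochondrial chaperones and proteases were detected, from Yme1l1 (47.63 and 52.12 TPM), Trap1 and Timm44 (16.91 and 24.70) down to Clpb (2.91 and 1.89). All 4 J-domain genes with other symbols were detected, with Gak highest, Hscb at 10.34 and 9.79, and Sec63 lowest at 3.03 and 3.70.

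The TPM of a gene is the sum over its annotated transcripts, and part of it lay on transcripts not annotated as protein-coding. Over the detected members, protein-coding transcripts held 79.4% ± 0.925 of the TPM (SD, n = 2). The median share was 87.6% on TPM and 93.7% on expected counts. The scales differ because short transcripts weigh more on TPM. The leading transcript was protein-coding for 49 of the 54 detected members and of another annotated type for 4, and that of Hspa4l is not in the annotation used for names.

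Hspa8 had the lowest coding share of the 3 highest members. Its coding transcript Hspa8-202 took 59.5% and 54.2% of the TPM, and Hspa8-209, a processed transcript of 727 bases, took 37.9% and 43.1%. On counts Hspa8-209 took only 16.5% and 19.7%. Protein-coding transcripts of Hspa8 summed to 297.45 TPM in replicate 1 and 305.50 in replicate 2, so its libraries lay closer together on this measure than on the gene total. On it Hspa8 exceeded Hspa9 3.06 ± 0.0105-fold, against 5.06 ± 0.301-fold on gene totals (SD, n = 2).

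Hsp90aa1 was divided between coding transcripts, with Hsp90aa1-202 at 51.5% and 51.7% and Hsp90aa1-201 at 38.6% and 37.0% of its TPM. Hsp90ab1 had a single main transcript, Hsp90ab1-201, at 88.4% and 89.4%. Among CCT genes, Cct2 and Cct7 have 1 listed transcript each, a coding one. In Cct5 the retained-intron transcript Cct5-202 took 29.2% and 26.1%, and in Cct8 the processed transcript Cct8-208 took 38.2% and 26.9%. Hspa4 had 47.6% and 38.2% on the processed transcript Hspa4-203. Of the others among the 12 highest members, Hspd1-201 held 92.5% and 97.4%, Hspa9-201 95.4% and 93.5%, Tcp1-209 71.2% and 74.6%, Cct4-204 71.4% and 61.9%, Cct3-201 53.6% and 63.6%, and Hsp90b1-201 81.1% and 77.5%. Dnajc15, a mitochondrial import protein, was listed with 1 transcript only, typed as subject to nonsense-mediated decay.

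**Figure D4:**
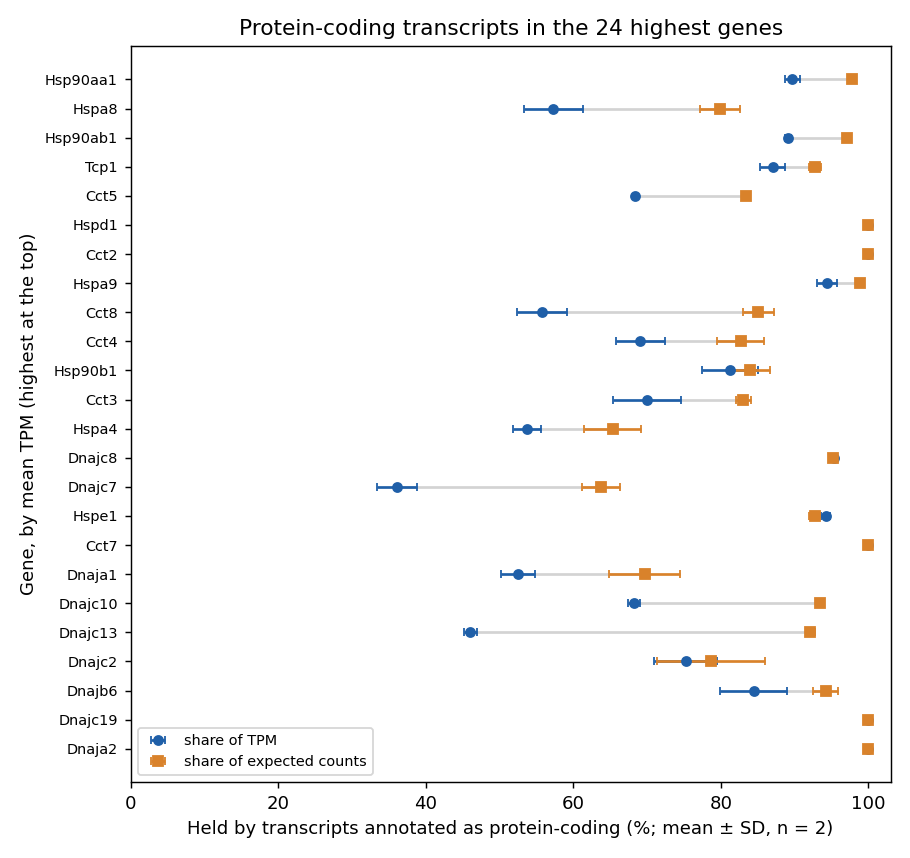
Share of each gene's TPM (blue circles) and expected counts (orange squares) held by transcripts annotated as protein-coding, for the 24 members with the highest mean TPM, as mean with SD (n = 2). Shares of TPM lie below shares of counts for most genes, with Hspa8 at 57.3% against 79.9% and Dnajc7 at 36.1% against 63.7%.

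Replicates were close for most members. Of 55 members whose mean TPM reached 1, 0 were 2-fold apart on TPM + 0.1, beside 1.95% of 8808 protein-coding genes with the same filter. Their log2 ratios, replicate 2 over replicate 1, ran from -0.78 to 0.49 with an SD of 0.24, beside an SD of 0.37 over those genes. The highest ratios were those of Dnaja1 (0.49), Dnajc4 (0.49), Hspb11 (0.47), Hspa4l (0.38) and Dnajb2 (0.34). Dnajc12 (-0.78), Hspb6 (-0.66), Hspa13 (-0.44), Dnajc30 (-0.36) and Dnajc25 (-0.29) were lowest.

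Several of these ratios went with a change in effective length, the abundance-weighted transcript length by which counts are divided. Dnaja1 had 2021 and 2238 counts, a ratio of 1.15 after scaling to protein-coding totals, while its effective length fell from 1826 to 1509 bases and its TPM ratio was 1.41. Hspa4l had 2054 and 2087 counts with lengths of 3636 and 2982 bases. Dnajc24, which acts in diphthamide synthesis, showed the reverse, with 97 and 166 counts, lengths of 417 and 693 bases and 7.06 and 7.64 TPM. Dnajc12 rested on 33 and 31 counts, a scaled ratio of 0.971, with lengths of 688 and 1215 bases. Hspb6 had lengths of 858 and 1257 bases and Dnajc25 of 2750 and 3379, with scaled count ratios of 0.898 and 0.980. For Hspa13 and Dnajc30, also among the lowest TPM ratios, the length ratio was 1.03 and 0.998. Effective lengths were within 10% between libraries for 43 of the 54 detected members, and 11 members were more than 1.2-fold apart on TPM against 6 on scaled counts. These counts were not made over all protein-coding genes, so they do not show a trait particular to the members.

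**Figure D5:**
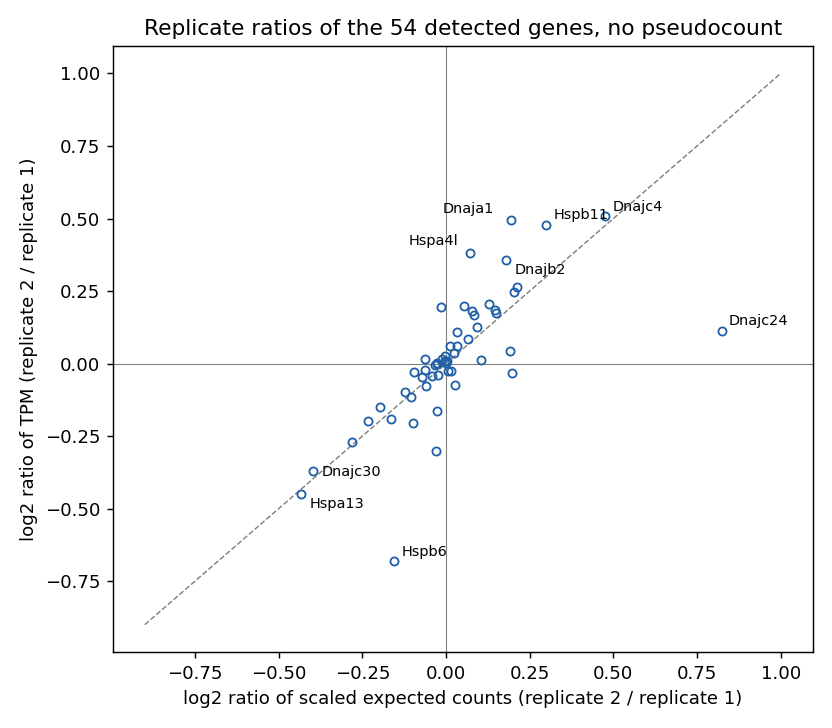
Log2 ratio of replicate 2 over replicate 1 on TPM (vertical) against expected counts scaled to protein-coding totals (horizontal) for the 54 detected members, each circle 1 gene, with the dashed line where both are equal. Most genes lie near the origin, Dnajc24 lies far to the right of the line and Dnaja1 and Hspa4l above it.

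On counts, 60 members had 20 or more in sum, and for 21 of them, 35%, the exact binomial interval of the ratio (95%, Clopper-Pearson) left out 1. The same share over 9800 protein-coding genes was 45.2%. Replicate 2 was higher for 14 members, 23.3% beside 23.5% of all genes, and replicate 1 for 7 members, 11.7% beside 21.7%. The scaled count ratio was 0.741 for Hspa13 (interval 0.663 to 0.827) and 0.759 for Dnajc30 (0.649 to 0.887). Large counts made small differences visible, as for Hsp90aa1 at 0.958 (0.948 to 0.969) and Hspa8 at 1.06 (1.04 to 1.07). The Hspa8 ratio also depends on how reads were shared with its pseudogene copies, which held 19011 counts in replicate 1 and 18335 in replicate 2. These intervals cover counting error only, since reads without molecular identifiers are not independent molecules, and they compare 2 libraries.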

How the data were processed

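Gene and transcript tables of 2 total RNA libraries were used. Per the labels the assembly was mm10; the sources used here do not give the quantifier, aligner or strand setting. Expected counts, as deposited, are estimated reads shared out among transcripts, not normalized. In the deposited files TPM and FPKM are scaled per effective length and library. The deposited transcript shares are percent of a gene's TPM. Posterior means and SDs of the counts were also deposited. FPKM and posterior means served as alternatives only.

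Genes were named from GENCODE M21 by identifier without version. Members are protein-coding genes whose symbol is Hspa, Hspb or Cct followed by a digit, starts with Dnaj or Hsp90, or is Hspd1, Hspe1, Hsph1 or Tcp1. The members and all lists were chosen with earlier results of these data known. Values are the mean ± SD of both libraries; where nothing more is said, 2 values are replicate 1 and replicate 2. No test was run, as there is 1 group. Named genes were all non-DNAJ members with a count, the 6 highest and 3 lowest DNAJ genes per class, the 5 highest and 5 lowest log2 ratios (pseudocount 0.1), transcripts of the 12 highest members, and the 3 highest and the lowest of each list; other names were chosen after their values were seen. Some results that this rule names are left out. Shared sequence was counted in 50-base words of M21 transcripts and identity with BLAST+ 2.17.0. The interval step was tested on simulated counts. Alternatives changed threshold, unit, scaling, filter, transcripts, copies and replicates. Scaling alternatives came from edgeR 4.0.16 and DESeq2 1.42.0 on expected counts rounded to whole numbers in R 4.3.3; other steps ran in Python 3.11.15 with scipy 1.17.1, numpy 2.4.6, pandas 2.3.3 and matplotlib 3.10.9.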

Additional observations from a re-analysis of the deposited data

How the results depend on the processing

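The members' mean share of protein-coding TPM, 1.50%, became 0.342% over all listed features, 1.64% on expected counts and 1.70% with pseudogene copies added. Their median of 5.44 TPM became 18.1 over detected members and 23.9 on TPM rescaled over protein-coding genes. On expected counts, which favour long genes, Hsp90ab1 over Hsp90aa1 was 0.572, Hspd1 over Hspe1 7.92, the CCT span 2.82, the Hspa8 share 99.7% and Hspa8 over Hsp90aa1 0.367. With protein-coding transcripts only, Hspd1 over Hspe1 was 2.52, the span over 7 CCT subunits 2.89, the Hspa8 share 99.7% and Hspa8 over Hsp90aa1 0.468. With copies added, the Hspa8 share was 99.9% and Hspa8 over Hsp90aa1 1.31, or 1.16 and 0.943 (coding transcripts) with the copies at the length of Hspa8-202. Without a filter on mean TPM 1 member was 2-fold apart. With either library alone the ranges were 55 to 56 members and 78 to 79 partner genes detected, 1.48% to 1.52%, a median of 5.36 to 5.50 TPM, and ratios of 0.694 to 0.723, 2.33 to 2.42, 3.09 to 3.15 and 0.683 to 0.787, with an Hspa8 share of 99.8%. The alternatives on transcripts, copies, Cct6a and the ratio of Hspa8 to Hsp90aa1 were chosen after seeing the data. With 2 libraries an SD has 1 degree of freedom, and depth limits genes near 3 counts.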
